A study of Mus musculus with 10 samples.

Results

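Coenzyme Q synthesis was examined through 10 genes, Pdss1, Pdss2, Coq2, Coq3, Coq5, Coq6, Coq7, Coq9, Coq10a and Coq10b, taken by symbol from the 23337 genes of the authors' deposited table. All 10 members were listed there with a fold change and an adjusted p-value. The table compares cardiomyocytes of wild-type mice that received AAV9-cTNT-dnMKL1-GFP (group dnMKL1, n = 5) with cardiomyocytes of wild-type mice that received AAV9-cTNT-GFP (group GFP, n = 5). Both viruses were given at 5e+08 viral genomes per gram on postnatal day 1, and cells were collected on postnatal day 14 by collagenase perfusion and fluorescence-activated sorting. The cTNT promoter is that of cardiac troponin T, which drives expression in cardiomyocytes, and both groups carried the vector and GFP. dnMKL1 is a dominant-negative form of MKL1 (MRTF-A), a coactivator of serum response factor (SRF). The comparison asks which transcripts differ when this form is present.

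Coenzyme Q, or ubiquinone, is a lipid of the inner mitochondrial membrane that carries electrons from complex I, complex II and other dehydrogenases to complex III. It is made inside mitochondria from an aromatic ring and a long isoprenoid tail, which are joined and then modified at the ring by a membrane-bound set of COQ proteins. The heart, which relies on mitochondrial respiration, is among the tissues richest in it, and inherited defects of these genes can cause cardiomyopathy.

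The values are the base mean (counts divided by the authors' size factors and averaged over all libraries), the log2 fold change with its standard error (SE), and a Wald p-value with Benjamini-Hochberg adjustment. Values of single libraries were not analysed here, so the spread between replicates enters through the SE, and whether the groups' libraries overlap cannot be shown. A gene was called at an adjusted p-value under 0.05 in the authors' deposited table. Intervals are 95% intervals from the SE, and implied means are group means computed from base mean and fold change. Estimated library totals ran from 8803005 to 17228537 counts. Mkl1, from which the vector's product derives, was listed with a log2 fold change of 9.80 (SE 0.15) in the authors' deposited table, which gave the direction: negative values mean lower in dnMKL1 libraries.

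Most coenzyme Q synthesis genes were lower in dnMKL1 cardiomyocytes. Of the 10 members, 8 fell and 0 rose, while Coq2 and Coq10b were not called. At an unadjusted Wald p under 0.05 there were 9, all lower. The same cutoff was met by 5854 of the 14056 tested genes, in either direction. Over all 14056 genes with an adjusted p-value, 17.4% were called lower and 16.6% higher. Among the 8501 genes with base means from 100 to 10000, the range that holds all members, 24.2% were called lower and 18.7% higher. The median log2 fold change of the members was -0.84, beside 0.021 over all tested genes and -0.025 over genes of that range. By level, the median was 0.0076 over the 6515 genes from 100 to 1000 and -0.13 over the 1986 genes from 1000 to 10000. Most members lie in the latter class. The members spread from -1.26 to -0.00080 in the authors' deposited table. Summed over the members, the implied means came to 24011 normalized counts with GFP and 13469 with dnMKL1. All 9 neighbouring pairs in the order of fold changes had overlapping intervals, as did 33 of all 45 pairs. Differences between members were not tested, since the covariance of genes measured in the same libraries is not known here.

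**Figure D1:**
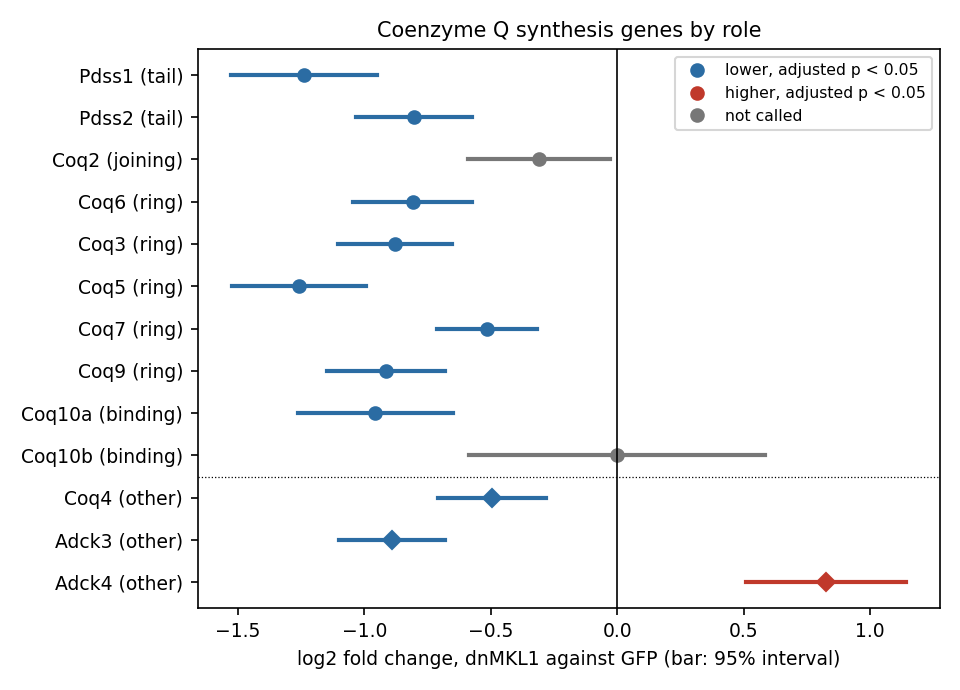
Log2 fold change of dnMKL1 against GFP (x axis) with its 95% interval (bar) for the 10 members (circles) by role, and for 3 further pathway genes (diamonds). Blue marks genes called lower, red called higher and grey not called at an adjusted p-value under 0.05. The intervals of the 8 members called lower lie below 0, as does that of Coq2, which was not called. That of Coq10b spans 0, and Adck4 lies on the other side.

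The tail is built by a synthase of paired subunits, both of which fell. Pdss1 (chr2:22895522-22940266, + strand) had implied means of 576 normalized counts with GFP and 244 with dnMKL1, or 42.4% of the GFP level (interval 34.7% to 51.8%). The authors' deposited table gave it -1.24 on the log2 scale (SE 0.15, adjusted Wald p = 2.8e-15). Of the 6515 genes at base means between 100 and 1000, 0.752% were as low or lower. Pdss2 (chr10:43221486-43464882, + strand) went from 391 to 224 normalized counts, 57.3% of the GFP level (48.9% to 67.1%), with a log2 fold change of -0.80 (SE 0.12, adjusted Wald p = 1.5e-10) in the authors' deposited table. The intervals of these partners overlapped. Reads of Pdss1 may include some of Abi1, whose exons share 194 of its 4248 exon bases on the opposite strand. Abi1 was higher, at 0.49 (SE 0.09) in the authors' deposited table. A130006I12Rik shares 207 of the 4248, also on the opposite strand.

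Because the members moved mostly together, the 250 bases before the RefSeq start of each gene (GRCm38.p6) were searched on both strands for motifs of factors tied to mitochondrial genes or to SRF. Windows were found for 9 of 10 members, 11 windows in all. Those of Coq2 and Coq6 lie wholly inside their GENCODE genes. That of Coq9 and the downstream windows of Coq3 and Coq10a lie partly inside theirs. A match or its absence there is thus not always upstream of the GENCODE gene. The motifs were the NRF1 core (GCGCA and GCGC with any base between), the estrogen-related receptor (ERR) element AAGGTCA and the CArG box that SRF binds. Neither the NRF1 core nor the CArG box occurred in a member's window, beside 3.74% and 1.47% of all 32851 windows. The ERR element occurred in 2 member windows, those of Pdss1 and Coq10a, beside 4.08% of all windows. The matches are 248 to 242 bases before the start of Pdss1 and 230 to 224 bases before the upstream of both RefSeq starts of Coq10a. That upstream start lies outside the GENCODE gene. A further motif, TGACG, the core of the cAMP response element, was added after the Coq10b window had been read. It occurred in 4 of the 11 member windows, beside 17.8% of all windows: 4 times in Coq10b, each in the other orientation (CGTCA), 2 times in Coq9, and 1 time each in Coq2 and in the unprinted window of Coq10a. Called and uncalled members thus both held it. Of all windows, 0.137% held 4 or more. All these matches are descriptions of letters, not sites shown to be bound. The windows of Pdss1 and Coq10a are printed as the members with an ERR match, and that of Coq10b as the paralog of Coq10a that was not called, chosen after its values were seen. Capitals mark the ERR element in Pdss1 (chr2:22895272-22895521, + strand) and Coq10a (chr10:128370038-128370287, - strand, where it reads TGACCTT), and CGTCA in Coq10b (chr1:55052520-55052769, + strand). No printed window holds a match to another of these motifs.
Pdss1: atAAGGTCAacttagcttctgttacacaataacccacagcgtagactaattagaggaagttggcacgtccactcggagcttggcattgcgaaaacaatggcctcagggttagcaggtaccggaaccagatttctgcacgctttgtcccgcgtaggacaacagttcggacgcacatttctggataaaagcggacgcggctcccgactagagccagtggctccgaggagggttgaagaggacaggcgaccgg
Coq10a: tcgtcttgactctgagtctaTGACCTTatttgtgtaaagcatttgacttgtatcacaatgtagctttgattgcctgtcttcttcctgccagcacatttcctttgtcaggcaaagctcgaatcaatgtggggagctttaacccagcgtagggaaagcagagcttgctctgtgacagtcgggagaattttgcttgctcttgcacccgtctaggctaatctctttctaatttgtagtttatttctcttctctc
Coq10b: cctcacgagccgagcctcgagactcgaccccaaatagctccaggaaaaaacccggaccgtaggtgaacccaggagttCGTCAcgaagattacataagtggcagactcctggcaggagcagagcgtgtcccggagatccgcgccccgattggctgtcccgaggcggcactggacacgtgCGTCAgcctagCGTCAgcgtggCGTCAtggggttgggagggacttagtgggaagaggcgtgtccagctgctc

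Coq2, the transferase that joins the tail to the ring, was not called. Coq2 (chr5:100654723-100675140, - strand) had implied means of 1449 normalized counts with GFP and 1169 with dnMKL1, 80.7% of the GFP level (66.4% to 98.1%). The authors' deposited table gave it -0.31 (SE 0.14) with an adjusted Wald p of 0.0830, from an unadjusted p of 0.0315. The interval of Coq2 did not overlap that of Pdss1, while it overlapped that of Pdss2.

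The enzymes that modify the ring all fell. Coq5 (chr5:115279666-115296972, + strand), the C-methyltransferase, had the most negative fold change of the members. It went from 3307 to 1382 normalized counts, 41.8% of the GFP level (34.8% to 50.2%), and the authors' deposited table gave a log2 fold change of -1.26 (SE 0.14, adjusted Wald p = 1.8e-18). Only 0.504% of the 1986 genes with base means from 1000 to 10000 were as low or lower. Coq3 (chr4:21879673-21912162, + strand), the O-methyltransferase, went from 1542 to 838 normalized counts, with -0.88 (SE 0.11, adjusted Wald p = 7.7e-13) in the authors' deposited table. Coq6 (chr12:84361657-84373796, + strand), a flavin-dependent hydroxylase, went from 1786 to 1020 normalized counts, with -0.81 (SE 0.12, adjusted Wald p = 4.5e-10) in the authors' deposited table. Coq3 and Coq6 were thus at 54.4% and 57.1% of their GFP levels, and their intervals overlapped.

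Coq7 and Coq9 act as partners late in the ring modifications. Coq7 (chr7:118509659-118533356, - strand) is the hydroxylase of the penultimate step, and Coq9 (chr8:94838321-94854895, + strand) is a lipid-binding protein that Coq7 needs. Coq9 fell to 53.1% of its GFP level (45.1% to 62.4%), from 10054 to 5335 normalized counts, with -0.91 (SE 0.12, adjusted Wald p = 8.5e-13) in the authors' deposited table. The fall of Coq7 was to 70.0% (61.1% to 80.3%), from 1970 to 1380 normalized counts, with -0.51 (SE 0.10, adjusted Wald p = 3.7e-06) in the authors' deposited table. Of the 8 members called lower, Coq7 had the fold change nearest 0, although its interval still overlapped that of Coq9. Ciapin1 shares 38 of the 3055 exon bases of Coq9 on the opposite strand, and Fam161b shares 128 of the 3142 of Coq6. Both neighbours were also lower, at -0.46 (SE 0.11) and -0.56 (SE 0.15) in the authors' deposited table.

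The paralogs Coq10a and Coq10b encode proteins that bind coenzyme Q and support its function in the respiratory chain without catalysing a step of synthesis. Coq10a (chr10:128363100-128368997, - strand) went from 2185 to 1126 normalized counts, 51.5% of the GFP level (41.6% to 63.8%). The authors' deposited table gave -0.96 (SE 0.16, adjusted Wald p = 2.2e-08). Coq10b (chr1:55052770-55072702, + strand) had implied means of 750.4 and 750.0 normalized counts, and the authors' deposited table gave -0.00080 (SE 0.30, adjusted Wald p = 0.999). Its interval reached from 66.6% to 150.1% of the GFP level and did not overlap that of Coq10a. The SE of Coq10b was the largest of the members. Genes at base means between 100 and 1000 had a median SE of 0.12, and 4.01% had an SE at least that large. The gene E330011M16Rik shares 343 of the 4805 exon bases of Coq10b on the opposite strand. The interval of Coq10b holds falls as well as rises, so neither a change nor its absence was shown. Per kilobase of transcript, the implied mean of Coq10a was 3.52 times that of Coq10b with GFP and 1.81 times with dnMKL1.

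**Figure D2:**
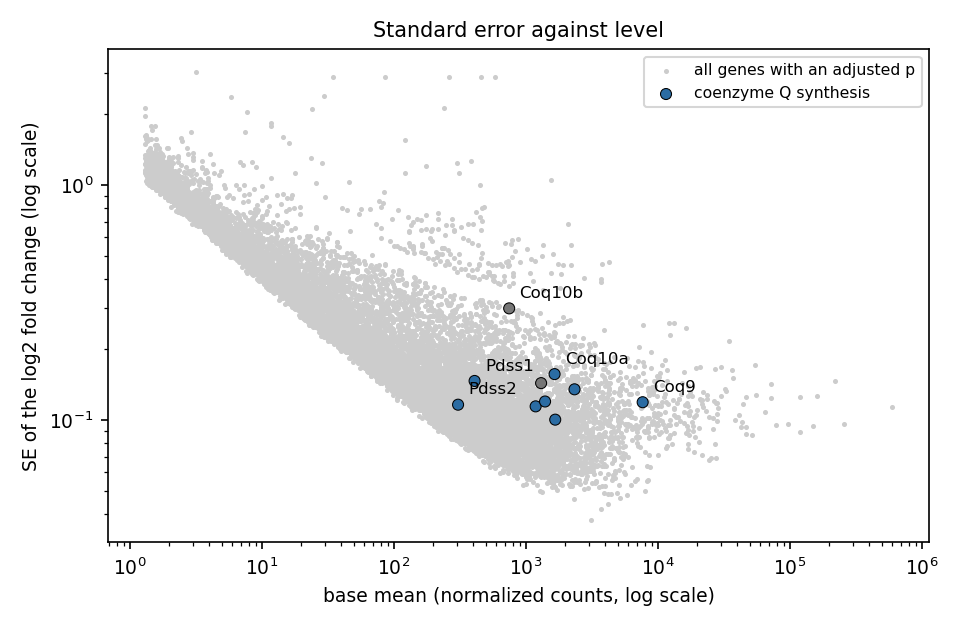
SE of the log2 fold change against base mean (both axes logarithmic) for all genes with an adjusted p-value (light grey) and the 10 members (outlined: blue called lower, dark grey not called). Coq10b, at an SE of 0.30, lies above the other members, which range from 0.10 to 0.16.

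Levels were compared between members per kilobase of the longest coding transcript in the GENCODE annotation of GRCm38, the assembly also called mm10. Per kilobase, Coq9 had the highest implied mean in the GFP group, 5620 normalized counts, and Pdss2 the lowest, 184. Coq5, Coq7 and Coq10a lay close together at 1624, 1621 and 1524, followed by Coq6 at 1005, Coq2 at 831, Coq3 at 582, Coq10b at 433 and Pdss1 at 351. In the dnMKL1 group Coq9 was again highest at 2982 and Pdss2 lowest at 105 normalized counts per kilobase. The order between them differed, with Coq7 next at 1136, then Coq10a at 785, Coq5 at 678 and Coq2 at 671. These values carry no error of their own, since spread over libraries is known only for the fold change, and neighbours in the order were not tested.

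**Figure D3:**
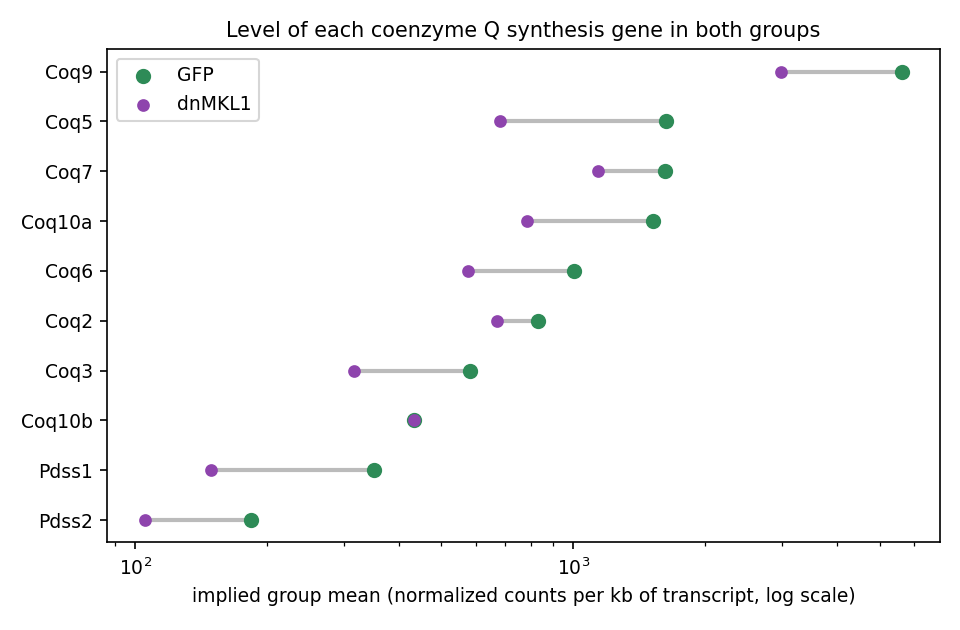
Implied mean per kilobase of transcript (x axis, log scale, normalized counts) in the GFP group (green) and the dnMKL1 group (purple) for each member, in order of the GFP level. The points of Coq10b coincide at 433, and those of Pdss1 lie farthest apart after Coq5 on this scale.

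The members are also shown among all genes of similar level in the plot of fold change against base mean. Their base means in the authors' deposited table ran from 308 for Pdss2 to 7694 for Coq9. Of the 8501 genes with base means from 100 to 10000, 0.623% were as low as Coq5 or lower, 1.95% as low as Coq9 and 10.2% as low as Coq7.

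**Figure D4:**
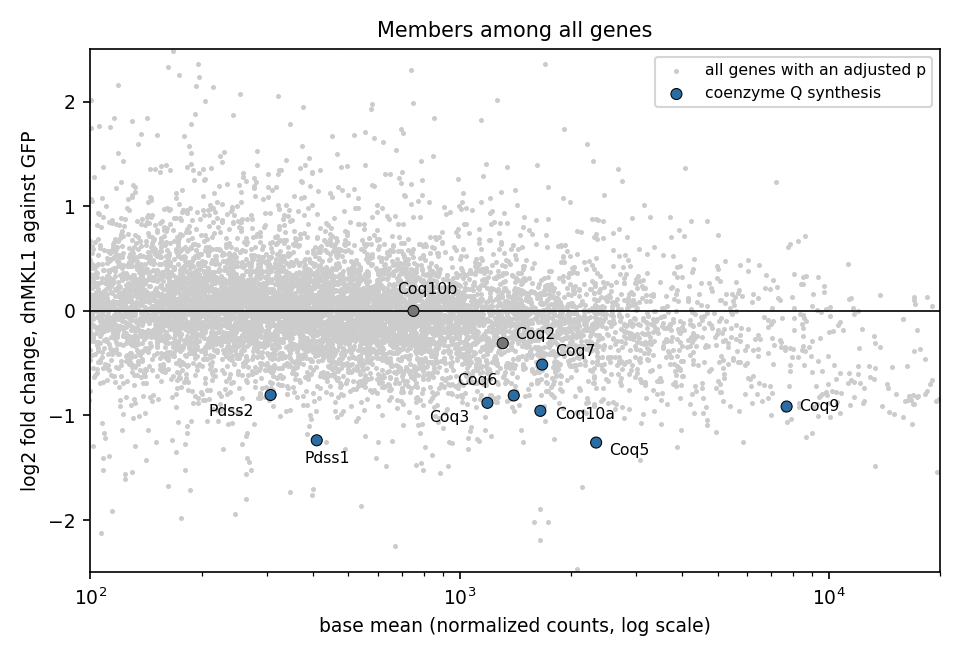
Log2 fold change of dnMKL1 against GFP (y axis) against base mean (x axis, log scale) for the 8584 genes with base means from 100 to 20000 (light grey; 20 lie beyond the plotted 2.5) and the 10 members (blue called lower, dark grey not called). The 8 members called lower lie at -0.51 or below, and Coq10b lies on the zero line.

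A further 9 genes act on the same pathway without being members. Of these, 7 fell and 1 rose, with a median log2 fold change of -0.50. Over all genes with an adjusted p-value, 17.4% were called lower and 16.6% higher. Adck3 (also named Coq8a; chr1:180165238-180199602, - strand) and Adck4 (Coq8b; chr7:27233023-27257950, + strand) encode paralogous kinase-like proteins needed for the COQ complex, and they moved in opposite directions. Adck3 fell from an implied 22096 to 11926 normalized counts, with -0.89 (SE 0.11, adjusted Wald p = 8.7e-15) in the authors' deposited table. Adck4 rose from 118 to 210 normalized counts, with 0.83 (SE 0.16, adjusted Wald p = 3.6e-06) in the authors' deposited table. Adck4 thus stood at 177% of its GFP level (142% to 221%), and the intervals of this pair lay on either side of 0. Per kilobase, Adck3 exceeded Adck4 by 105.6 times with GFP and 32.1 times with dnMKL1. An antisense gene, Gm15567, shares 455 of the 5586 exon bases of Adck4, and their reads cannot be told apart without strand. Gm44641 shares 153 of the 5586 on the same strand, where strand would not separate reads. Cdc42bpa shares 366 of the 5293 exon bases of Adck3 on the opposite strand. It was not called, at 0.02 (SE 0.32) in the authors' deposited table.

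Coq4, a component that holds the COQ complex together, was lower at -0.50 (SE 0.11, adjusted Wald p = 4.4e-05) in the authors' deposited table. Trub2 shares 921 of the 3399 exon bases of Coq4 on the opposite strand and was also lower, at -0.39 (SE 0.09) in the authors' deposited table, so reads of these 2 genes may be mixed. Pptc7, a mitochondrial phosphatase that promotes coenzyme Q synthesis, had -0.89 (SE 0.10, adjusted Wald p = 3.0e-18) in the authors' deposited table. Stard7, a lipid transfer protein, and Parl, the protease that processes it, had -0.45 (SE 0.07) and -0.50 (SE 0.06) there, with adjusted Wald p-values of 9.7e-10 and 3.8e-13 in the authors' deposited table. Hpdl and Fdxr were the remaining genes that fell, and Fdx1l was not called.

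Upstream of the tail synthase, the mevalonate pathway and the enzymes of prenyl diphosphates did not move together. Of 12 genes, 3 fell, 2 rose and 7 were not called, with a median log2 fold change of 0.010. The shares over all genes with an adjusted p-value were 17.4% lower and 16.6% higher. Hmgcs1, an early enzyme of the mevalonate pathway, fell by 0.45 (SE 0.08, adjusted Wald p = 5.4e-07) in the authors' deposited table. Fdft1, which diverts farnesyl diphosphate to sterols, fell by 0.82 (SE 0.13, adjusted Wald p = 2.0e-08), and Dhdds, which extends it to dolichols, rose by 0.25 (SE 0.10, adjusted Wald p = 0.0420) in the authors' deposited table. Pmvk was called lower at an adjusted Wald p of 0.0498 in the authors' deposited table. The call of Dhdds was lost with a t distribution of 8 degrees of freedom (adjusted p = 0.119).

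Genes of the complexes that use coenzyme Q were also lower. All 7 complex I core subunits fell, with a median log2 fold change of -0.82 and a range from -0.96 to -0.72. Examples were Ndufs1, Ndufv1 and Ndufs7, at -0.80 (SE 0.10), -0.83 (SE 0.11) and -0.96 (SE 0.15) in the authors' deposited table. All 9 complex III genes, which oxidise the reduced form, fell as well, with a median of -0.64 and a range from -1.08 to -0.45. After scaling of both groups to one total, 6 of these 9 were called, and 7 with the t distribution. Uqcrc2, Uqcrfs1, Uqcrc1 and Cyc1 led this list, at -0.91 (SE 0.12), -1.08 (SE 0.14), -0.79 (SE 0.12) and -0.85 (SE 0.13) in the authors' deposited table. Uqcrfs1 encodes the Rieske iron-sulfur protein, to which reduced coenzyme Q passes its first electron. Among 14 genes of enzymes that reduce coenzyme Q or feed such an enzyme, 10 fell, 1 rose and 2 (Gpd2 and Sqrdl) were not called, while Chdh was listed at 0. The median of this list was -0.70. Sdha, the flavoprotein of complex II, had -0.83 (SE 0.10) and Etfdh, which passes electrons from fatty acid oxidation to coenzyme Q, had -0.89 (SE 0.12), with adjusted Wald p-values of 1.1e-14 and 4.7e-13 in the authors' deposited table. Sdhb, the iron-sulfur subunit of complex II, and Etfa, which donates electrons to Etfdh, had -0.98 (SE 0.13) and -0.74 (SE 0.10) in the authors' deposited table. Nqo1, a cytosolic quinone reductase, was the gene that rose, by 0.50 (SE 0.10, adjusted Wald p = 5.9e-06) in the authors' deposited table. Whether the members' median differs from those of these lists was not tested.

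**Figure D5:**
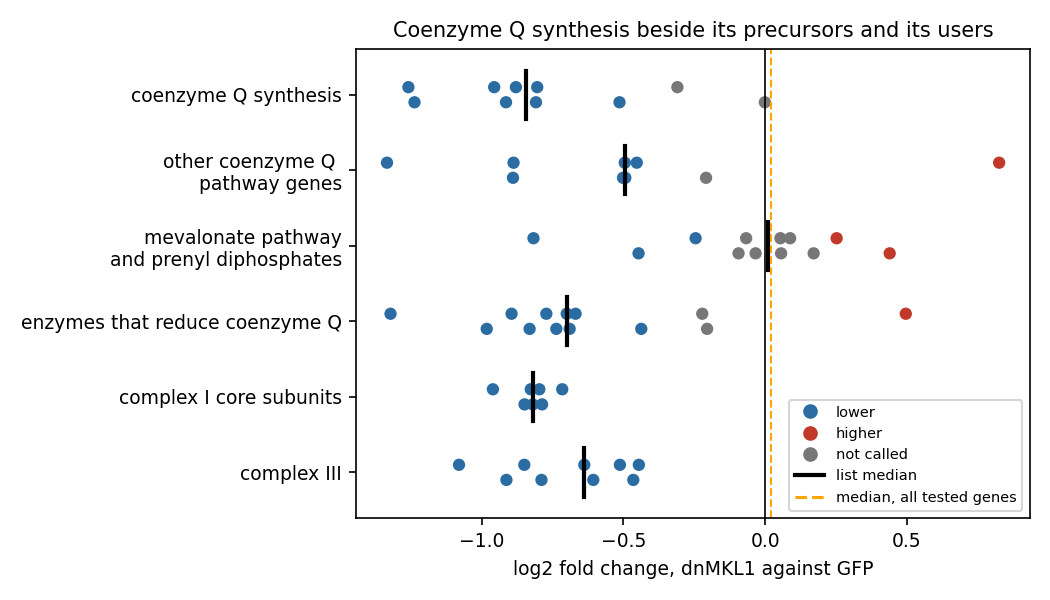
Log2 fold change of dnMKL1 against GFP (x axis) for each gene (point) of the members and the 5 related lists (rows). Blue marks genes called lower, red called higher and grey not called, black bars are list medians and the dashed line is the median of all tested genes. The mevalonate list centres at 0.010, and the other lists have medians from -0.84 to -0.50.

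The calls depended in part on scaling. Most cardiomyocyte markers were lower like the members, while markers of other cell types mostly were not. With both groups scaled to the same total, every log2 fold change shifts up by 0.29, and the calls over all genes go from 2452 lower and 2340 higher to 927 lower (6.6%) and 5685 higher (40.4%). Of the members, 7 were still called lower under that scaling and 0 higher, with a median of -0.56. Coq7 was then not called (-0.23, adjusted p = 0.0528). Of 7 cardiomyocyte markers, 5 (Myh6, Tnnt2, Tnni3, Actc1 and Ryr2) were also lower and 0 higher, with a median log2 fold change of -0.58. Myl2 and Pln were not called, at -0.20 (SE 0.11) and -0.21 (SE 0.11) in the authors' deposited table. The implied means of all 7 summed to 1403933 normalized counts with GFP and 763958 with dnMKL1. The largest falls within this sum were those of Myh6, from 768373 to 421599, and Actc1, from 326267 to 111228 normalized counts. Of 9 fibroblast markers, 4 (Gsn, Col1a1, Col1a2 and Col3a1) were higher and 0 lower, with sums of 4415 and 6864. Gsn had the largest rise within this sum, from 876 to 1951 normalized counts. The 8 endothelial markers had 0 calls by the Wald test in the authors' deposited table and 0 at an unadjusted p under 0.05, with sums of 2578 and 2638. Of 7 mural markers, Cspg4 and Myh11 were higher and Acta2 lower, with sums of 11876 and 8098. The fall of the sum came from Acta2, which went from 10454 to 4999 normalized counts. It was the 1 mural marker with a negative fold change. For macrophages, 6 of 7 markers were listed and Cd68 was higher, with sums of 138 and 123. No listed marker was at 0. Fewer cardiomyocytes, less RNA per cell and a change of the marker genes themselves cannot be told apart in these bulk samples. The part of cell makeup in the members' values was not tested.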

How the data were processed

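RNA of sorted cardiomyocytes was measured in 10 libraries, 5 per group. Per the labels' protocols, 10 ng of total RNA entered SMART-Seq cDNA synthesis with 8 PCR cycles, and 500 pg of cDNA entered Nextera XT. The submitters' processing notes name STAR 2.5.3a, featureCounts, Subread 1.5.2 and mm10. The annotation and strand settings are not given in the sources used here, so reads of overlapping genes may be mixed.

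Per the file headers, the authors' deposited table has the columns of a DESeq2 results table. The base mean is a signal made by the authors by dividing counts by size factors and averaging over the libraries, per the file headers. Fold change and SE were deposited as log2 values. Their ratio equals the deposited score, the Wald statistic, within 1.14e-05. The deposited adjusted p-value was recomputed within 1.44e-07. The direction, not stated in the headers, was read from Mkl1. Some rows are written with fewer digits than others.

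The members and lists were chosen with earlier results of these data known. All members are named. Of each related list, up to 4 called genes with the smallest p-values are named, and Coq4, Adck3 and Adck4 in any case. Some genes that this rule names are not reported here. Implied means take the base mean as the average of 2 equal groups. Library size factors, from 0.660 to 1.58, came from the base means of genes with a single read, and totals assume the group's composition. No error was computed for these size factors and totals. The planned count test gave way to the deposited Wald test, which the plan named for this case. Scripts (Python 3.11.15, scipy 1.17.1) were tested on simulated data. Planned protein sequences were not used here. RefSeq windows were searched before the start only.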

Additional observations from a re-analysis of the deposited data

How the results depend on the processing

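Among the 10 members, each direction and call held with adjustment over every gene with a p-value. They also held with a t distribution with 8 degrees of freedom. Calls were the same with adjusted p-values under 0.01, a minimum log2 fold change of 0.5 and median centring. These are weak checks: called members had adjusted Wald p-values of at most 3.7e-06 and changes of -0.51 or below, and centring moved values by -0.0041. Base means of at least 10 or 100 could not change a member, since the lowest was 308. At an adjusted p-value under 0.1 Coq2 was also called (adjusted p = 0.0830). Total-count scaling adds 0.29 to each value by its construction: it reversed Coq10b to 0.29, which was not called, and moved the medians to -0.56 for the members, -0.21 for the other pathway genes, -0.41 for enzymes that reduce coenzyme Q, -0.53 for complex I, -0.35 for complex III and 0.30 for the mevalonate list, which then had 1 gene lower and 5 higher. Genes called lower there went from 8 to 7 among the members (Coq7 lost its call), 7 to 5 among the other pathway genes, 10 to 9 among enzymes that reduce coenzyme Q and 9 to 6 in complex III, and stayed at 7 in complex I. Complex III had 8 called under 0.01, 7 with a minimum change of 0.5 and 7 with the t distribution. The 2 higher mevalonate genes became 0 under 0.01, 1 with adjustment over every p-value, 0 with a minimum change of 0.5 and 0 with the t distribution. With base means of at least 100 the mevalonate median reversed to -0.067, as fewer genes enter. A minimum change of 0.5 left 1 lower mevalonate gene, 4 lower other pathway genes and 0 higher genes among the enzymes that reduce coenzyme Q, since fewer genes can pass. No paired analysis was possible because the table holds the comparison and not the libraries that carry the replicate numbers. Fits without 1 library were not run for the same reason, so whether 1 library decides a value, that of Coq10b included, is not known.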

Other observations

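Besides Adck3 and Adck4, the table lists 3 further genes of this kinase-like family, which were looked at after their values had been seen. On the log2 scale, the authors' deposited table had Adck1 at -0.53 (SE 0.12), Adck2 at -0.31 (SE 0.12) and Adck5 at -0.04 (SE 0.14). Their adjusted Wald p-values were 3.9e-05, 0.0290 and 0.891 in the authors' deposited table. Adck1 and Adck2 were thus called lower, in the direction of Adck3, and Adck4 was the gene of the 5 that was called higher.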
